A study of Homo sapiens with 9 samples.

Results

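The matrix metalloproteinases (MMP), the ADAMTS proteases and their tissue inhibitors (TIMP) were measured in GIST-T1, an established human line of gastrointestinal stromal tumour (GIST) cells. Members were taken by symbol, as MMP, ADAMTS or TIMP followed by a number. They made up 45 of the 23610 genes in the table, with 22 MMP, 19 ADAMTS and 4 TIMP genes. PolyA RNA was sequenced from 9 libraries in 3 groups of 3, which received an sgRNA (the guide RNA that directs a CRISPR enzyme) against ETV1, against HAND1 or, as the control, against Luciferase. The Luciferase sgRNA libraries are called control libraries below. ETV1 is an ETS-family and HAND1 a basic helix-loop-helix transcription factor. The labels list each sgRNA as a knockdown. All groups shared the cell line, and no other agent is named in the labels. The labels do not say whether the cells were a clone or a pool, how long after the sgRNA RNA was taken, or whether replicates are separate cultures. The p-values therefore measure the spread between these libraries only.

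MMPs are zinc endopeptidases made as inactive precursors that cleave collagens, laminins and other matrix proteins, and several are anchored in the cell membrane. ADAMTS proteases are secreted relatives with thrombospondin repeats that cleave proteoglycans, trim procollagens or process other matrix proteins. TIMPs bind the active site of these enzymes and block it, and TIMP2 is also a partner of MMP14 in the activation of the MMP2 precursor at the cell surface.

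The target transcripts followed the labels. The ETV1 transcript had a mean of 11.4 ± 0.571 FPKM (SD, n = 3) in the ETV1 sgRNA libraries, against 39.7 ± 2.42 in control and 40.8 ± 0.960 in HAND1 sgRNA libraries. HAND1 fell by 1.55 (SE 0.05, adjusted p = 2.41e-07) on the log2(FPKM + 1) scale with HAND1 sgRNA against Luciferase sgRNA. With ETV1 sgRNA the HAND1 transcript was at 133.8, 133.4 and 129.7 FPKM, all above the 115.5, 113.5 and 113.7 of the control libraries. That difference was 0.21 (SE 0.05, limma adjusted p = 0.258). FPKM are fragments scaled to transcript length and library size. No counts are given, so the absolute depth is unknown. Relative depth was estimated from the most frequent ratio of low FPKM values between libraries. The estimate holds only if FPKM were scaled by library size alone. Relative to control replicate 1, it was 0.637 (lowest, ETV1 sgRNA replicate 2) to 0.953 for the others. In each library 11283 to 11345 genes reached 1 FPKM. Control replicate 3 stood apart, with an FPKM sum of 538689 against 451286 to 479939 in the other libraries. Calls of the proteases and inhibitors, and counts of the lists, that change without it are given below. All 6 markers of GIST and interstitial cells of Cajal were above 0.5 FPKM on average, among them KIT at 192, ANO1 at 169 and CD34 at 1659 FPKM. ETV1, a target of the sgRNAs, is also among the 6. Their summed level was 2062 to 2160 FPKM in control libraries, 1921 to 1981 with ETV1 sgRNA and 2103 to 2202 with HAND1 sgRNA. The ETV1 sgRNA range thus lay below the other ranges, and its part in the result was not tested.

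In all, 19 of the 45 genes had a mean of at least 0.5 FPKM over the 9 libraries and were compared between groups: 8 MMP, 8 ADAMTS and 3 TIMP genes. The other 26 genes lay below this level (14 MMP, 11 ADAMTS and 1 TIMP), and 6 of them were listed at 0 in every library. With Luciferase sgRNA alone 17 of the 19 reached 0.5 FPKM, the exceptions being MMP19 at 0.423 and ADAMTS10 at 0.427. The genes just inside the limit were ADAMTS10 (0.510 FPKM), ADAMTS3 (0.513) and MMP19 (0.521), and those just outside were MMP25 (0.341) and MMP10 (0.339). Only 6 genes had a mean of 10 FPKM or more, 10 lay between 1 and 10, and 3 between 0.5 and 1.

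MMP2, the gelatinase that cleaves type IV collagen and denatured collagen, was the most abundant member. Its mean level was 320 FPKM, with 198 genes of the table above it. The other gelatinase, MMP9, had a mean of 0.0416 FPKM and was not tested. MMP2 alone made up 91.6% ± 0.242 (SD, n = 3) of the summed FPKM of all MMP genes in control libraries. Since FPKM are scaled to length, such levels can be compared between genes.

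The inhibitors came next, with TIMP1 at a mean of 79.7, TIMP2 at 64.4 and TIMP3 at 54.5 FPKM. TIMP3 differs from the other inhibitors in binding to the matrix and in inhibiting several ADAM and ADAMTS proteases. TIMP4 was above 0 in 1 library only, at 0.0708 FPKM. Among ADAMTS genes the highest were ADAMTS1 at 23.7 and ADAMTS4 at 12.7 FPKM, both of which cleave proteoglycans such as aggrecan and versican. Of the 7 ADAMTS genes of that kind, 4 were compared (ADAMTS1, ADAMTS4, ADAMTS8 and ADAMTS15) and 3 lay below the limit.

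The remaining collagenases and membrane proteases were lower. MMP1, the interstitial collagenase that cuts fibrillar collagens, had a mean of 9.49 FPKM, and MMP8, a collagenase best known from neutrophils, 4.28 FPKM. MMP11, a stromelysin-type enzyme activated inside the cell by furin, had a mean of 9.21 FPKM. Of the 6 membrane-type MMP genes, MMP15 (3.79 FPKM), MMP24 (2.06) and MMP16 (1.66) were compared. MMP14, the best-known membrane-type enzyme and chosen here after its values were seen, was at 0.0840, 0.128 and 0.0350 FPKM in control libraries, 0.341, 0.264 and 0.109 with ETV1 sgRNA and 0.155, 0.0294 and 0.499 with HAND1 sgRNA. Its values overlapped between all groups and spanned 0.0294 to 0.499 FPKM within the 3 HAND1 sgRNA libraries.

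**Figure D1:**
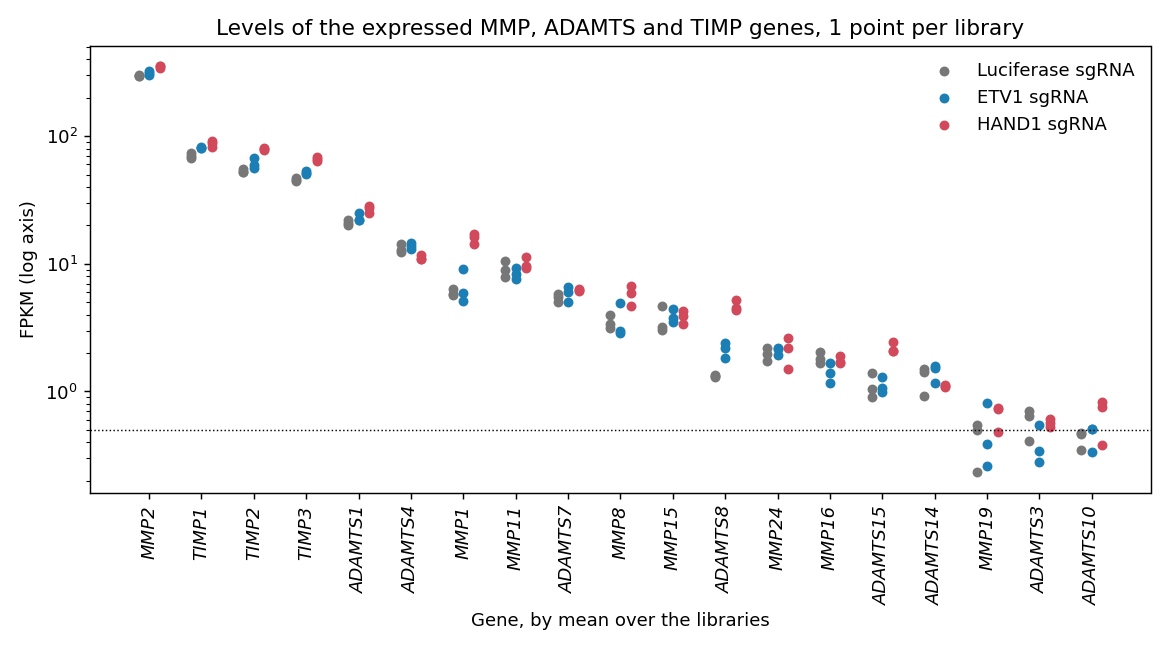
FPKM on a log axis (vertical) of the 19 compared genes (horizontal, by mean), with 1 point per library in grey (Luciferase sgRNA), blue (ETV1 sgRNA) and red (HAND1 sgRNA) and a dotted line at 0.5 FPKM. MMP2 (mean 320 FPKM) and the 3 TIMP genes stand above all others, and for MMP1, ADAMTS8 and ADAMTS15 the red points lie clear of the grey and blue ones.

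With HAND1 sgRNA against Luciferase sgRNA, 8 of the 19 compared genes rose and 0 fell. A gene is said to rise or fall, or to be called, where its adjusted p from limma (Benjamini-Hochberg over all genes tested) was under 0.05. This is 42.1% of them, beside 6.20% of all 12151 genes tested called in either direction and 3.45% called higher. The genes that rose were MMP1 and MMP2 of 8 MMP genes, ADAMTS1, ADAMTS8 and ADAMTS15 of 8 ADAMTS genes, and TIMP1, TIMP2 and TIMP3, the 3 inhibitors compared. The median difference of the 19 genes was 0.22 on the log2(FPKM + 1) scale, and that of all genes tested -0.01. For 10 of the 19 genes all 3 HAND1 sgRNA values lay above all 3 control values (12.8% of all genes tested), and for 1 they lay below (12.5%). The count of 8 dropped to 5 without control replicate 1 and without HAND1 sgRNA replicate 3, when MMP2, ADAMTS1 and ADAMTS15 were not called. Without control replicate 3, the library that stands apart, the same 8 genes were called. In such bulk RNA a change in the share of cells making a transcript and a change in its amount per cell cannot be told apart.

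ADAMTS8, a proteoglycan-cleaving protease, and MMP1 had the largest differences of the compared genes in this comparison. ADAMTS8 was at 1.29, 1.36 and 1.32 FPKM in the 3 control libraries and 4.36, 4.50 and 5.21 FPKM in the 3 HAND1 sgRNA libraries. Every HAND1 sgRNA library was above every control library. The group means were 1.32 ± 0.0319 and 4.69 ± 0.453 FPKM (SD, n = 3), a ratio of 3.55, and the difference was 1.29 (SE 0.10, adjusted p = 6.28e-05). On the log2(FPKM + 1) scale used here the change of low genes is understated: with a pseudocount of 0.1 the difference was 1.75 and with 5 it was 0.62. The order of ADAMTS8 and MMP1 depended on this choice, since MMP1 was at 1.40 with 0.1 and at 0.93 with 5. Among the 419 genes called higher, ADAMTS8 ranked 8 and MMP1 ranked 9 by the difference at a pseudocount of 1.

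ADAMTS15, a close relative that also cleaves proteoglycans, was at 0.913, 1.05 and 1.39 FPKM in control libraries and at 2.06, 2.09 and 2.44 FPKM with HAND1 sgRNA. The groups did not overlap. The difference was 0.60 (SE 0.12, adjusted p = 0.0158) for means of 1.12 ± 0.248 and 2.20 ± 0.207 FPKM. The call was lost without control replicate 1 (adjusted p = 0.0605) or 2 (0.0609) and without HAND1 sgRNA replicate 3 (0.0724).

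ADAMTS1 was at 21.0, 22.0 and 20.2 FPKM in control libraries and at 25.1, 28.4 and 27.1 FPKM with HAND1 sgRNA. Here too the groups did not overlap, and the difference was 0.34 (SE 0.07, adjusted p = 0.0186). The call was lost without control replicate 1 (adjusted p = 0.0524) and without HAND1 sgRNA replicate 2 (0.0762) or 3 (0.0734). ADAMTS4 lay in the other direction and was not called. It was at 12.4, 12.8 and 14.4 FPKM in control libraries and at 10.9, 10.9 and 11.7 FPKM with HAND1 sgRNA. All 3 HAND1 sgRNA values were the lower ones, and the difference was -0.22 (SE 0.07, adjusted p = 0.115).

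MMP1 was the collagenase that rose. It was at 6.31, 5.80 and 5.67 FPKM in control libraries and at 14.4, 17.0 and 16.2 FPKM with HAND1 sgRNA. The lowest HAND1 sgRNA library was far above the highest control library. Group means were 5.93 ± 0.338 and 15.8 ± 1.33 FPKM (SD, n = 3), a ratio of 2.67, and the difference was 1.28 (SE 0.16, adjusted p = 0.000858).

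MMP8 lay in the same direction and was not called. It was at 4.01, 3.15 and 3.37 FPKM in control libraries and at 5.85, 6.66 and 4.68 FPKM with HAND1 sgRNA, without overlap. The difference was 0.57 (SE 0.17, adjusted p = 0.088), and it passed the threshold when only the 2 groups were fitted (0.0496) or without ETV1 sgRNA replicate 3 (0.0288). All 5 neutrophil markers had means below 0.5 FPKM, CEACAM8 was at 0 in every library, and their summed level was 0 in all control libraries, 0.407 to 1.11 FPKM in the ETV1 sgRNA libraries and 0 to 0.671 FPKM in the HAND1 sgRNA libraries.

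MMP2 rose by a small amount from its high level. The control libraries were at 297.8, 296.9 and 299.2 FPKM and the HAND1 sgRNA libraries at 352.3, 340.6 and 353.0 FPKM. The ranges were narrow and apart. The difference was 0.23 (SE 0.05, adjusted p = 0.0257), a ratio of means of 1.17. Of the 6 libraries compared, leaving out any but control replicate 3 removed the call, with adjusted p = 0.0655 and 0.0912 without control replicates 1 and 2 and 0.0924, 0.0543 and 0.114 without HAND1 sgRNA replicates 1, 2 and 3.

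The 3 inhibitors rose together with HAND1 sgRNA. TIMP3 was at 44.5, 46.6 and 45.0 FPKM in control libraries and at 64.3, 69.0 and 66.0 FPKM with HAND1 sgRNA, a difference of 0.54 (SE 0.05, adjusted p = 0.000124). TIMP2 was at 52.0, 54.8 and 52.4 against 77.6, 80.8 and 79.2 FPKM, a difference of 0.57 (SE 0.07, adjusted p = 0.000605). Both had ranges that were far apart relative to the spread within a group. TIMP1, a secreted inhibitor of most MMPs, was at 69.3, 68.0 and 74.1 against 91.6, 82.8 and 88.1 FPKM, again without overlap and with the smallest difference of the inhibitors, 0.31 (SE 0.05, adjusted p = 0.00715). MMP1, ADAMTS8, TIMP1, TIMP2 and TIMP3 were called in this comparison in all 18 alternative fits.

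**Figure D2:**
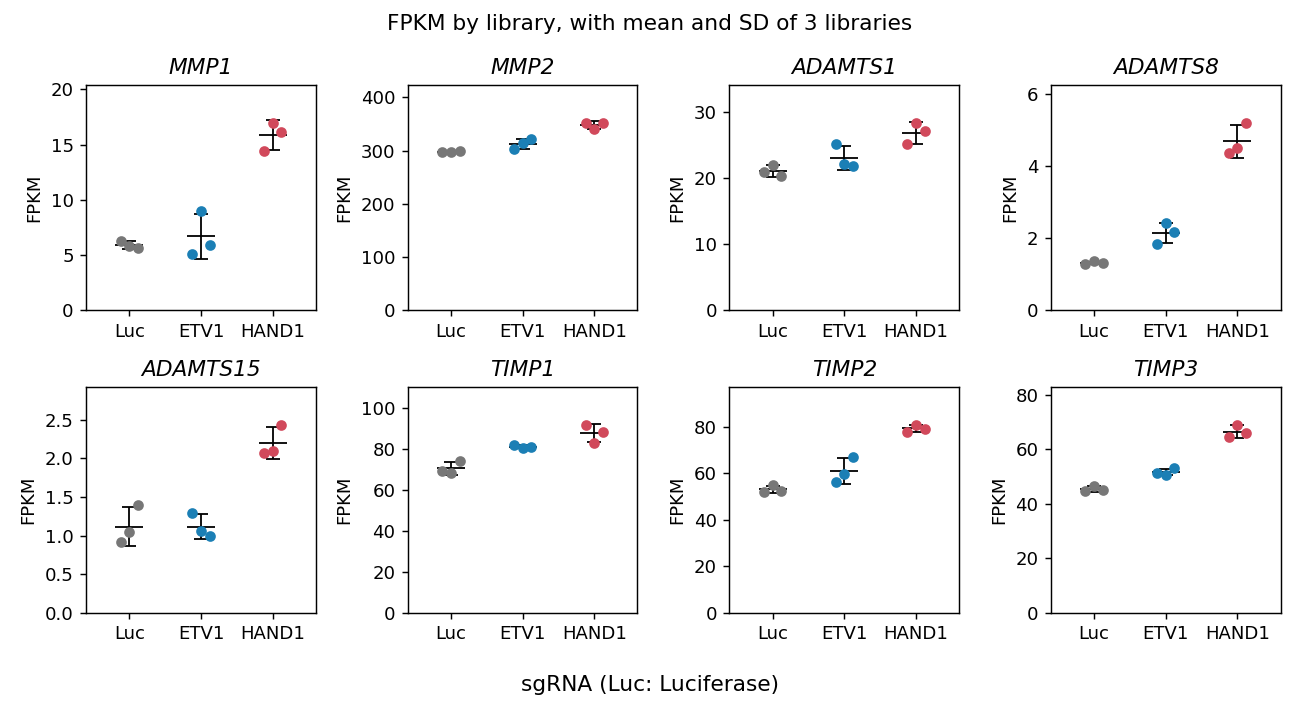
FPKM (vertical, from 0) in each library of the 8 genes that rose with HAND1 sgRNA against Luciferase sgRNA, by sgRNA (horizontal; Luc is Luciferase); points are libraries, the long line is the mean and the bars the SD of 3 libraries. In each panel the red HAND1 sgRNA points lie above the grey control points, from 4.36 FPKM against at most 1.36 for ADAMTS8 to 340.6 against at most 299.2 for MMP2.

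Some of these genes overlap others, and the library kit did not mark strand. Reads from a stretch that 2 genes share therefore cannot be assigned by strand. Overlaps were taken from whole gene spans, introns included, and shared exons were not looked for. TIMP1 and TIMP3 lie within introns of SYN1 and SYN3, whose mean levels were 0.740 and 0.0399 FPKM. MMP1 overlaps the pseudogene WTAPP1 (0.0255 FPKM) and MMP19 overlaps TMEM198B (1.99 FPKM). The values of MMP19 may therefore be uncertain if exons are shared, as may those of ADAMTS7, which has pseudogene copies. MMP24 and TIMP2 also overlap genes that were not found in the table by name.

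The promoters of the inhibitors are shown because TIMP1 and TIMP3 rose together and the sgRNAs were aimed at an ETS factor and an E-box-binding factor. RefSeq windows (250 bases before to 50 after a start, build GRCh38.p14) were matched for 26 of the 45 genes, 10 of them compared ones, and of the 8 genes that rose only TIMP1 and TIMP3 had one. The 250 bases before the start are printed 5′ to 3′ on the + strand, at chr22:32801455-32801704 for TIMP3 and chrX:47582186-47582435 for TIMP1. Capitals mark the ETS core GGAA, the GC box GGGCGG and the AP-1 variant TGAGTAA, each on either strand.
TIMP3 promoter: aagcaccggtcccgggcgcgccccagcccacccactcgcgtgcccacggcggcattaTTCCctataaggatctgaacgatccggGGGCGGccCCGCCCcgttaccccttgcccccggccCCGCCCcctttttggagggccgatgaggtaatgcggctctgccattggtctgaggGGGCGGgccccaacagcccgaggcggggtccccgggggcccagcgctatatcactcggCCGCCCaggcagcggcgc
TIMP1 promoter: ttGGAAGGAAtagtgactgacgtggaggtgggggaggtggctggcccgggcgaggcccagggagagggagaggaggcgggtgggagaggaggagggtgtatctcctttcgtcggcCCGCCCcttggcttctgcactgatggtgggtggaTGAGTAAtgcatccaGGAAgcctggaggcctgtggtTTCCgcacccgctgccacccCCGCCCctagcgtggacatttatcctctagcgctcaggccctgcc
The TIMP1 window held 4 matches of GGAA, the most upstream starting at -248 and -244, where the first base of the transcript is 1. It also held 2 matches of GGGCGG and 1 of TGAGTAA at -101. The TIMP3 window held 1 match of GGAA at -193 and 5 of GGGCGG, and was richer in G and C (72.4% against 64.8% in the printed bases). Neither window held the E-box CANNTG or the AP-1 motif TGANTCA. Of all 35116 promoter windows of 300 bases, 95.5% held the ETS core, 68.7% the E-box, 7.71% the AP-1 motif, 2.57% the AP-1 variant and 45% the GC box. Of the 11 windows of compared genes, 11 held the ETS core, 3 the E-box, 0 the AP-1 motif, 1 the AP-1 variant and 9 the GC box. The ETS core is thus present in nearly every promoter of this length, and a match is a description of the letters only.

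**Figure D3:**
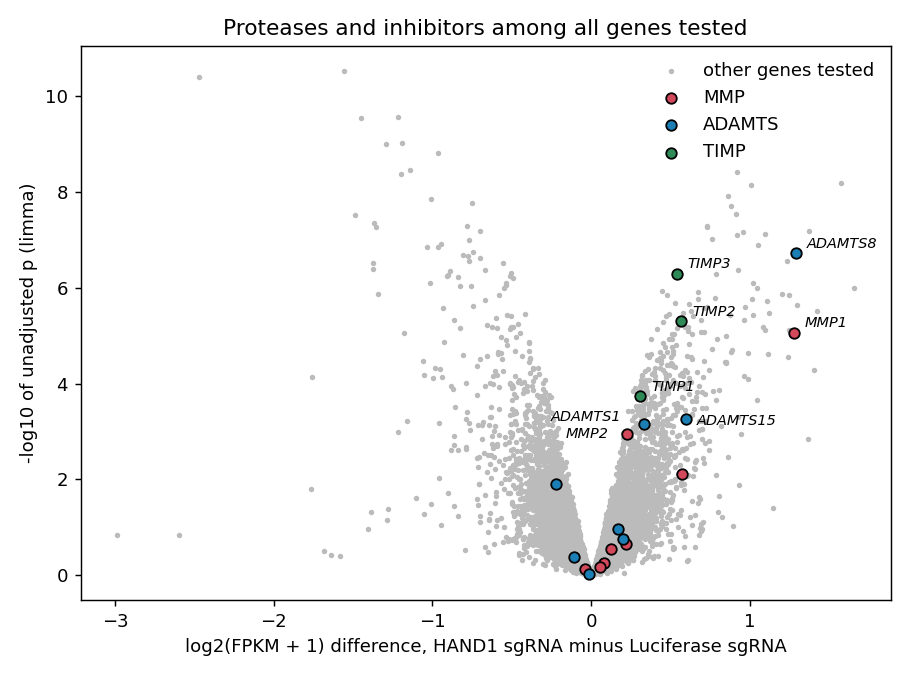
Difference on the log2(FPKM + 1) scale between HAND1 sgRNA and Luciferase sgRNA (horizontal) against -log10 of the unadjusted limma p (vertical) for all 12151 genes tested (grey), with the MMP (red), ADAMTS (blue) and TIMP (green) genes on top and the 8 called ones named. ADAMTS8 (1.29) and MMP1 (1.28) lie far to the right and all named genes lie right of 0.

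With ETV1 sgRNA against Luciferase sgRNA, limma called 0 of the 19 genes, beside 0.189% of all genes tested. At an unadjusted p under 0.05 it gave 4 (ADAMTS8, TIMP1, TIMP2 and TIMP3), beside 8.14% of all genes. The median difference of the 19 genes was 0.07, that of all genes -0.01, and single differences ran from -0.24 to 0.43. In 5 genes, those 4 and MMP2, all 3 ETV1 sgRNA values lay above all 3 control values (6.93% of all genes), and in 0 they lay below (5.93%). The number of all genes called was 23. It was 13 and 14 without control replicates 1 and 2, 11 and 14 without replicates 1 and 3 of ETV1 sgRNA, and 15 without replicate 1 or 2 of HAND1 sgRNA.

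ADAMTS8 was at 1.84, 2.42 and 2.18 FPKM with ETV1 sgRNA, all above the control values of 1.29 to 1.36 and all below the HAND1 sgRNA values. Its difference from Luciferase sgRNA was 0.43 (SE 0.10, 95% interval 0.20 to 0.66, adjusted p = 0.246). TIMP1 was at 81.7, 80.4 and 81.0 FPKM with ETV1 sgRNA, a difference of 0.20 (95% interval 0.08 to 0.32, adjusted p = 0.325). TIMP2, at 56.0, 59.6 and 67.1 FPKM, was the most variable inhibitor in that group, and its difference was 0.19 (95% interval 0.05 to 0.34, adjusted p = 0.466). TIMP3, at 51.3, 50.7 and 53.1 FPKM, differed by 0.18 (95% interval 0.08 to 0.29, adjusted p = 0.301). None of these differences passed the threshold over all genes.

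The pattern of MMP1 was another one. With ETV1 sgRNA it was at 5.08, 9.03 and 5.95 FPKM, so that only replicate 2 lay above the control range, and the difference was 0.12 (SE 0.16, 95% interval -0.23 to 0.46, adjusted p = 0.908). Without ETV1 sgRNA replicate 2 it was -0.091. ADAMTS15 with ETV1 sgRNA was at 1.30, 1.06 and 0.991 FPKM, within its control range. MMP8 was at 2.96, 2.89 and 4.96 FPKM, with replicate 3 above and the other libraries below that range.

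Compared directly, 5 of the 19 genes were higher with HAND1 sgRNA than with ETV1 sgRNA and 0 were lower, 26.3% beside 3.71% of all genes called in either direction and 1.84% called higher. They were MMP1, ADAMTS8, ADAMTS15, TIMP2 and TIMP3. This comparison shares its HAND1 sgRNA libraries with the one above and is no separate evidence of the HAND1 sgRNA levels. Differences were 1.16 for MMP1 (SE 0.16, adjusted p = 0.00237), 0.86 for ADAMTS8 (SE 0.10, adjusted p = 0.00122) and 0.60 for ADAMTS15 (SE 0.12, adjusted p = 0.0225). The ADAMTS15 call was lost without ETV1 sgRNA replicate 2 (0.0774) or 3 (0.0856) and without HAND1 sgRNA replicate 1 (0.0645), 2 (0.0659) or 3 (0.0989). TIMP2 differed by 0.38 (SE 0.07, adjusted p = 0.00924) and TIMP3 by 0.36 (SE 0.05, adjusted p = 0.00252).

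For TIMP1 the test between the HAND1 and ETV1 sgRNAs was not passed, with a difference of 0.11 (95% interval -0.01 to 0.23, adjusted p = 0.394). The same held for MMP2, which was at 302.9, 314.3 and 321.4 FPKM with ETV1 sgRNA (difference 0.16, adjusted p = 0.146), and for ADAMTS1, at 25.1, 22.2 and 21.9 FPKM (0.21, adjusted p = 0.156). ADAMTS4 was at 14.7, 13.8 and 13.2 FPKM with ETV1 sgRNA, all above the HAND1 sgRNA values, with a difference of -0.29 (SE 0.07, adjusted p = 0.0597) that passed without control replicate 3 (0.0349). MMP8, whose values overlapped between these groups, differed by 0.57 (SE 0.17, adjusted p = 0.121). Its difference passed without ETV1 sgRNA replicate 3 (0.0229). For 5 genes (ADAMTS8, MMP2, TIMP1, TIMP2 and TIMP3) the libraries were ordered without overlap, Luciferase sgRNA lowest, then ETV1 sgRNA, then HAND1 sgRNA, an order seen in 1.13% of all genes tested.

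**Figure D4:**
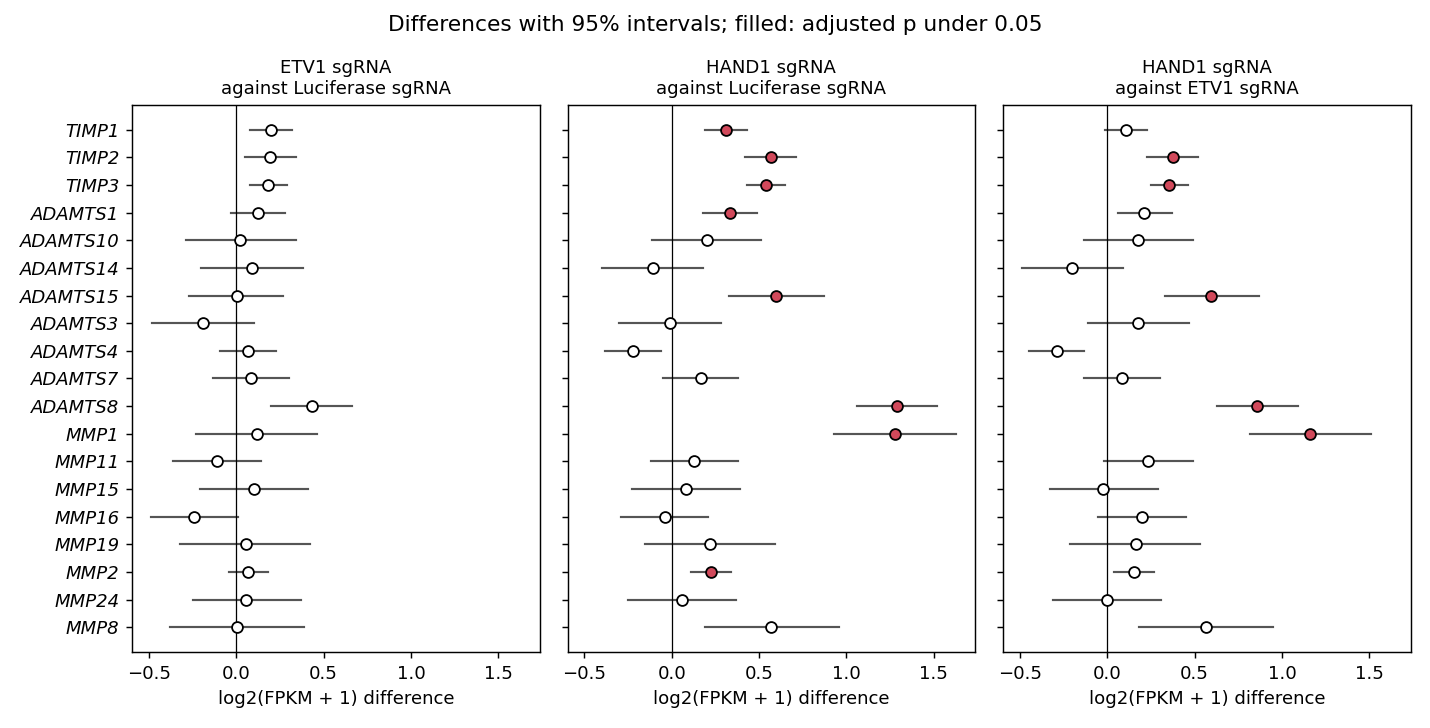
Differences on the log2(FPKM + 1) scale (horizontal) of the 19 compared genes (vertical) with 95% intervals, in the 3 comparisons; filled points passed an adjusted p under 0.05. There are 0 filled points for ETV1 sgRNA against Luciferase sgRNA, 8 for HAND1 sgRNA against Luciferase sgRNA and 5 for HAND1 sgRNA against ETV1 sgRNA, all right of 0.

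The other compared genes were not called in any comparison. Their group means with Luciferase, ETV1 and HAND1 sgRNA were 9.16, 8.40 and 10.1 FPKM for MMP11. The membrane-type genes had group means of 3.62, 3.92 and 3.84 FPKM (MMP15), 1.97, 2.08 and 2.12 (MMP24) and 1.83, 1.40 and 1.75 (MMP16). The procollagen-trimming proteases were at 1.28, 1.42 and 1.10 FPKM (ADAMTS14) and 0.584, 0.389 and 0.566 (ADAMTS3), so that 0 of the 2 passed. MMP15 and ADAMTS14 were the members in which control replicate 3 lay farthest from the mean of the other control libraries, by 0.46 and -0.36 on the log2(FPKM + 1) scale. ADAMTS7, at 5.46, 5.87 and 6.24 FPKM, had all HAND1 sgRNA values above the control values. MMP19 (0.423, 0.488 and 0.652 FPKM) and ADAMTS10, which binds fibrillin microfibrils (0.427, 0.452 and 0.652), were near the limit of 0.5, and single libraries of both spread from under 0.35 to over 0.8 FPKM.

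Summed over each family, the group means kept the same order. The summed TIMP level was 169 ± 2.79 FPKM in control libraries, 194 ± 6.61 with ETV1 sgRNA and 233 ± 0.448 with HAND1 sgRNA (SD, n = 3), and the ranges did not overlap. The summed MMP level was 325 ± 0.627, 340 ± 10.7 and 390 ± 6.54 FPKM. Without MMP2 it was 27.4 ± 0.765, 27.6 ± 2.02 and 41.4 ± 0.788 FPKM, so that the Luciferase and ETV1 sgRNA groups overlapped and the HAND1 sgRNA group stood above both. The summed ADAMTS level was 45.4 ± 1.02, 49.4 ± 2.81 and 54.7 ± 2.74 FPKM. Its ranges with ETV1 sgRNA (46.8 to 52.4 FPKM) and HAND1 sgRNA (51.5 to 56.3 FPKM) overlapped. The ratio of summed TIMP to summed MMP transcript levels was 0.519, 0.569 and 0.598. MMP2 made up 91.6%, 91.9% and 89.4% of the MMP sum in the Luciferase, ETV1 and HAND1 sgRNA groups. The ratio is therefore mostly one of the inhibitors to MMP2 and does not describe the other MMP genes. These sums were not tested.

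Genes of the surrounding pathway were taken as lists. Of 24 activators, other inhibitors and clearance factors, 17 were tested: 0 were called with ETV1 sgRNA, 3 rose and 0 fell with HAND1 sgRNA against Luciferase sgRNA, and the median difference of the 17 was 0.14. Of all genes tested, 0.189% were called with ETV1 sgRNA and 6.20% with HAND1 sgRNA (3.45% higher), and the median with HAND1 sgRNA was -0.01. A2M, a broad protease inhibitor, went from 1.60 ± 0.355 to 3.77 ± 0.0982 FPKM (difference 0.88, adjusted p = 0.00179). PLAT, the tissue plasminogen activator, went from 2256 ± 86.0 to 3160 ± 41.3 FPKM (0.49, adjusted p = 0.0064), a call that was lost without the filter on low genes (0.0741). PLG, its substrate and an activator of several MMP precursors, was listed at 0 in all libraries (chosen after its values were seen). CD44, a cell-surface anchor for proteases, rose by 0.30 (adjusted p = 0.0291), and lost the call without control replicate 2 (0.0924) or 3 (0.0747), without HAND1 sgRNA replicate 1 (0.106) or 2 (0.076), and with only the 2 groups compared (0.063). Between HAND1 and ETV1 sgRNA, 1 gene of this list, PLAT, was called (0.54, adjusted p = 0.00555), beside 3.71% of all genes called and 1.84% called higher. This PLAT call was lost without the filter (0.0688) and with quantile normalization (0.0919). Without control replicate 3 the count of the list in this comparison was 2.

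Of 19 other metzincins, the wider protease class with the ADAM sheddases, 9 were tested. Against Luciferase sgRNA 0 of them were called, beside 0.189% of all genes with ETV1 sgRNA and 6.20% with HAND1 sgRNA. The highest metzincins were ADAM15 at 38.4 and ADAM9 at 29.9 FPKM. Without HAND1 sgRNA replicate 2 the count for HAND1 sgRNA was 1. HAND1 sgRNA against ETV1 sgRNA gave 2 higher, beside 3.71% of all genes called in either direction and 1.84% called higher. They were ADAM19 (0.34, adjusted p = 0.0363) and ADAM23 (0.40, adjusted p = 0.0381), named here outside the rule for named genes. The metzincin count was 0 without control replicate 2, without each ETV1 sgRNA replicate and without HAND1 sgRNA replicate 1 or 3. It was 1 without control replicate 1 or HAND1 sgRNA replicate 2. It was also 0 without the filter on low genes (ADAM19 0.0596, ADAM23 0.0681), and 1 without the intensity trend and with only the 2 groups compared. ADAM23 was also not called with quantile normalization (0.05). Of 7 ADAMTS-like proteins, which lack the protease domain, 3 were tested and 0 were called in any comparison, beside the same shares of all genes. The highest, ADAMTSL3, had a mean of 8.53 FPKM. The ADAMTS-like count was 1 without control replicate 3 in both HAND1 sgRNA comparisons and without HAND1 sgRNA replicate 1 against Luciferase sgRNA.

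Among the substrates, 29 of 39 listed genes were tested, which were matrix genes and the growth factor carriers IGFBP3 and IGFBP5. With HAND1 sgRNA against Luciferase sgRNA 15 rose, IGFBP3 among them, and 2 fell, IGFBP5 among them. This stands beside 6.20% of all genes called and 3.45% called higher. The median was 0.35, and that of all genes -0.01. Without control replicate 3 the 17 calls became 16, as NID2 was not called (adjusted p = 0.0769). With ETV1 sgRNA 2 rose (DCN and IGFBP3) and 0 fell, beside 0.189% of all genes. IGFBP3, an insulin-like growth factor carrier that MMPs cleave, went from 1.78 ± 0.0834 FPKM in control libraries to 3.99 ± 0.435 with ETV1 sgRNA and 7.28 ± 0.253 with HAND1 sgRNA. IGFBP5, another such carrier, fell by 0.78 (adjusted p = 6.94e-05) with HAND1 sgRNA. The other gene that fell was FBN1, by 0.90 (adjusted p = 0.000132). DCN rose by 0.92 (adjusted p = 5.11e-06) and THBS1 by 0.91 (adjusted p = 1.98e-05) with HAND1 sgRNA against Luciferase sgRNA. Of 16 AP-1, ETS and RUNX factors known at protease promoters, 14 were tested. With ETV1 sgRNA FOS and JUN rose and ETV1 itself fell. FOS was at 2.18 ± 0.460 FPKM in control libraries, 13.4 ± 1.21 with ETV1 sgRNA and 1.73 ± 0.107 with HAND1 sgRNA. JUN rose by 0.48 with ETV1 sgRNA (adjusted p = 0.0235; 0.135 with only the 2 groups compared, 0.076 without control replicate 1, 0.107 without replicate 2, 0.126 and 0.151 without ETV1 sgRNA replicates 1 and 3, and 0.0602, 0.0623 and 0.0549 without the HAND1 sgRNA replicates). With HAND1 sgRNA 2 of the list rose and 4 fell, beside 6.20% of all genes called. FOSL2 rose by 0.71 (adjusted p = 0.00235) and JUN by 0.36 (0.0107), and JUN kept that call in all 18 alternative fits. JUNB fell by 0.65 (adjusted p = 0.002), ETV5 by 0.30 (0.00558), ETV4 by 0.27 (0.00685) and RUNX2 by 0.48 (0.0117). RUNX2 lost the call without control replicate 2 (0.0539) or HAND1 sgRNA replicate 1 (0.052).

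All 4 endothelial markers, 5 of 6 macrophage markers and 4 of 5 epithelial markers had means below 0.5 FPKM, and AIF1, a macrophage marker, was at 0 in every library. The summed macrophage markers, nearly all CD68 at a mean of 5.05 FPKM, were at 3.91 to 5.05 FPKM in control libraries, 4.33 to 6.09 with ETV1 sgRNA and 5.46 to 7.50 with HAND1 sgRNA. The HAND1 sgRNA range lay above the control range, and the ETV1 sgRNA range overlapped both. The means of the others were 0.297 (CD14), 0.157 (CD163), 0.0278 (CSF1R) and 0.00684 FPKM (MARCO). The part of these markers in the result was not tested. The summed fibroblast markers, nearly all THY1, were at 359 to 397 FPKM in control libraries, 392 to 424 with ETV1 sgRNA and 319 to 335 with HAND1 sgRNA. Of these 5 markers 1, FAP, was below 0.5 FPKM, at a mean of 0.00494 FPKM. The others had means of 347 (THY1), 12.6 (S100A4), 5.35 (COL1A1) and 4.78 FPKM (PDGFRB), and their part in the result was not tested.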

How the data were processed

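The RNA came from an RNeasy Plus kit, and non-stranded NEBNext Ultra II libraries were read on a NovaSeq6000, per the labels' protocols. STAR, Cufflinks and hg19 are named per the submitters' processing notes, without versions. Which annotation was used, and how libraries were scaled, is not given in the sources used here. As deposited by the authors, the values are FPKM, 1 for each gene in each library, so no count model was applied. Values below 1e-06 were read as 0.

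Of the 23610 genes, 6473 were at 0 throughout and 12151 averaged 0.5 FPKM or more and were tested. The test was limma 3.58.1 in R 4.3.3 on log2(FPKM + 1), with all 9 libraries in 1 fit, a term for the group and an intensity trend. The code was tested on simulated data. Tests were two-sided, with p-values adjusted by Benjamini-Hochberg over all genes tested and a threshold of 0.05. The 3 comparisons share libraries pairwise. The 95% intervals come from the same fit and are not adjusted.

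Every member of at least 0.5 FPKM was named, and members called in any comparison were given by library. Up to 4 called genes of each list in each comparison with Luciferase sgRNA, or up to 2 where none was called, were named. For HAND1 sgRNA against Luciferase sgRNA, JUN, RUNX2 and FBN1 were named outside this rule. The genes and lists were chosen with earlier results of these data known. Roles of the proteases were assigned from textbook knowledge. Promoters and overlaps came from RefSeq (GRCh38.p14), another build than the files', so no coordinates of the files were used. The overlap of 1 compared gene is not reported here. The alternatives changed the pseudocount (0.1 or 5), the filter (none or 1 FPKM), the scaling (quantile, or centring on the median of genes from 10 FPKM up), the trend (none) or the libraries fitted (only the groups compared, or each library left out), or added a replicate block.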

Additional observations from a re-analysis of the deposited data

How the results depend on the processing

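The counts of proteases and inhibitors called were 0 in every fit for ETV1 sgRNA against Luciferase sgRNA. Leaving out 1 library gave 5 to 9 for HAND1 sgRNA against Luciferase sgRNA (8 with all libraries; 5 without control replicate 1 and without HAND1 sgRNA replicate 3) and 4 to 6 for HAND1 sgRNA against ETV1 sgRNA (5 with all). The other alternatives gave 8 and 5, except the replicate block. Over all genes, leaving out a library gave 11 to 25 calls for ETV1 sgRNA (23 with all), 430 to 730 for HAND1 sgRNA (753) and 271 to 583 between the 2 sgRNAs (451). The HAND1 sgRNA count was 483 without control replicate 2 and 487, 489 and 430 without HAND1 sgRNA replicates 1, 2 and 3. Between the sgRNAs it was 297 and 298 without replicates 1 and 2 of ETV1 sgRNA and 271, 293 and 277 without those of HAND1 sgRNA. With only the 2 groups compared, ETV1 sgRNA gave 14 calls. The cause of these moves was not tested, beyond fewer libraries being in the fit.

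Correlations of deviations from group means were -0.128 to 0.121 between same-numbered libraries, with 1 of 9 pairs over 0.1. Between libraries of different number and group they were -0.114 to 0.162. No pairing by number was seen, but this cannot show whether libraries shared a culture or preparation. With the replicate block the counts were 16, 641 and 361 of all genes and 0, 7 and 4 of the proteases and inhibitors: MMP2 against Luciferase sgRNA (adjusted p = 0.0556) and ADAMTS15 between the sgRNAs (0.0517) were not called, nor, of the other genes named, CD44 against Luciferase sgRNA (0.0501) and ADAM19 (0.0573) and ADAM23 (0.064) between the sgRNAs. MMP2 was also not called with only the 2 groups compared (0.0773). Of 996 recomputed member differences 29 changed sign, none of them called in either fit and all at most 0.12 in size in the fit reported, such as MMP1 with ETV1 sgRNA (-0.091 without ETV1 sgRNA replicate 2, in a range of -0.091 to 0.27 when leaving out 1 library). No absolute depth is known, which limits what can be said of the 26 genes under 0.5 FPKM.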

Other observations

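Some of these genes lie side by side on a chromosome. The following pairs have 0 protein-coding genes between them in RefSeq and were picked with their values known. ADAMTS8 and ADAMTS15 are such neighbours, and both rose with HAND1 sgRNA against Luciferase sgRNA. ADAMTS1 and ADAMTS5 are also neighbours, at means of 23.7 and 0.0498 FPKM. In the MMP cluster, MMP1 (9.49 FPKM) and MMP8 (4.28 FPKM) flank MMP10, a stromelysin with a mean of 0.339 FPKM. MMP10 was not tested. It was at 0.185, 0.281 and 0.310 FPKM with Luciferase sgRNA, 0, 0.193 and 0.401 with ETV1 sgRNA and 0.747, 0.388 and 0.549 with HAND1 sgRNA, where all 3 values lay above the Luciferase sgRNA ones. The other genes of the cluster were near 0: MMP3 had a mean of 0.0328, MMP13 of 0.0146 and MMP27 of 0.0110 FPKM, and MMP7, MMP12 and MMP20 were listed at 0 in every library.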
